A study of Homo sapiens with 14 samples.

Results

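The unfolded protein and amino acid stress response was described through 39 genes, chosen by name from 60587 genes measured in human cartilage pellets. Of these members, 18 belong to the ATF4 arm and 21 to the endoplasmic reticulum (ER) arm. The ATF4 arm holds 4 transcription factors, 4 feedback and effector genes, 6 genes of serine, glycine, one-carbon and asparagine synthesis, and 4 amino acid transporter subunits. The ER arm holds 4 genes of the stress sensors and XBP1, 14 ER chaperones and folding enzymes, and 3 genes of ER-associated degradation. Each member matched 1 gene identifier, and all 39 passed the filter on low counts, which left 17838 genes for testing.

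The pellets were made from the established line WA01 (H1) of human embryonic stem cells and kept in chondrogenic medium, which directs the cells towards cartilage. RNA of whole pellets was sequenced at day 21 (4 libraries), day 30 (5 libraries) and day 45 (5 libraries), so the groups share line and medium and differ by time in culture. There was no untreated or stressed control, all libraries come from 1 line, and the labels do not say whether replicates were separate cultures, so p-values measure the spread between these libraries, which may be technical. The library titled day 45 replicate 1 carries a treatment label of 30 days. It was kept at day 45 by its title.

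When unfolded proteins build up in the ER, the sensors PERK (gene EIF2AK3), IRE1 (gene ERN1) and ATF6 are activated. PERK phosphorylates the translation factor eIF2 alpha, as do other kinases that sense amino acid shortage, haem or viral RNA. Phosphorylation lowers general translation but favours that of ATF4, which turns on genes for amino acid supply, redox balance and cell death. IRE1 splices the XBP1 transcript and ATF6 is cut to a free transcription factor, and both then act on genes of ER chaperones and of the degradation of misfolded proteins. Chondrocytes secrete large amounts of collagen and proteoglycan and depend on this folding capacity.

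The libraries held 18183776 to 33660704 expected counts. Levels of a gene are given in CPM, counts-per-million after scaling by the trimmed mean of M values (TMM), and are compared within a gene. Markers of chondrocytes (12 of 12 with a mean of at least 1 CPM on each day) had sums between 47230 and 60750 CPM at day 21. Their sums lay between 111400 and 262000 CPM at day 30 and between 209600 and 330700 CPM at day 45. The highest of these genes was COL2A1 (at most 235100 CPM). Of the 12 genes, 11 were called higher and 1 lower at day 45 against day 21. From day 30 to day 45, 3 were called higher, 3 lower and 6 were not called, beside 27.6% higher and 28.7% lower of all genes. The tendon and fibroblast list overlapped between days, with sums of 15010 to 15840, 12060 to 18000 and 13060 to 18860 CPM. These sums were mostly COL3A1 and COL1A1 (at most 10150 and 8729 CPM). At day 45 against day 21, 2 of its 8 genes were called higher and 4 lower, beside 27.1% and 30.5% of all genes. The blood list had sums of 0.836 to 1.5, 5.46 to 12.7 and 45.5 to 65.2 CPM, nearly all of it CD68, while 6 of its 7 genes had a mean below 1 CPM on every day and HBG1 was at 0 in all libraries. Neuron markers lay at 191 to 201, 131 to 183 and 117 to 136 CPM. Endothelial markers lay at 24.0 to 32.5, 6.41 to 15.9 and 8.56 to 11.99 CPM, with CDH5 at 0 throughout. Pluripotency markers lay at 14.9 to 18.8, 4.10 to 6.55 and 1.03 to 2.29 CPM. The highest genes of these lists were MAP2 (at most 179.5 CPM), KDR (31.96 CPM) and DPPA4 (16.68 CPM). At day 21, 6 of 10, 5 of 6 and 5 of 7 of their genes had a mean below 1 CPM. In day 30 replicates 3 to 5, long genes were lower than short ones, with a Spearman correlation between gene length and a gene's deviation from its mean of -0.43, -0.52 and -0.47, against -0.03 and -0.09 in replicates 1 and 2 and 0.10 to 0.26 in the other libraries. In bulk RNA, fewer cells of a type and less RNA per cell cannot be told apart.

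Promoter windows of the members were searched for sequence elements tied to the arms. RefSeq windows of GRCh38.p14, from 250 bases before to 50 after a gene's start, were found for 35 of the 39 members. The core of the C/EBP-ATF response element, TGATGNAA on either strand, occurred in 4 of 15 genes of the ATF4 arm (26.7%: ASNS, CHAC1, SLC3A2 and SLC7A1) and in 1 of 20 of the ER arm (HERPUD1), against 4.46% of the 27305 genes in the promoter table. The ER stress response element, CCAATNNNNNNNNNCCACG on either strand, occurred in 7 of 20 genes of the ER arm (35.0%: CALR, CANX, CRELD2, HSP90B1, HSPA5, PDIA6 and XBP1), in 0 of 15 of the ATF4 arm and in 0.0916% of all genes. Its shorter form, ATTGGNCCACG, occurred in HERPUD1, HYOU1 and SDF2L1 (15.0% of the ER arm) and in 0.0696% of all genes. The unfolded protein response element TGACGTGG occurred in HYOU1, where it overlaps that shorter form, and in 0.927% of all genes. A match gives the presence of the letters only and does not show that a factor binds. Members were chosen by name as genes of these pathways, so their shares are a description and not a test.

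The sequences below are those of members whose levels are described in detail. Capitals mark the match, which is flanked by 20 bases on each side, and each is written 5′ to 3′ on the gene's own strand. ASNS (chr7:97872449-97872496, minus strand) and CHAC1 (chr15:40953242-40953289, plus strand) carry the C/EBP-ATF core, in CHAC1 in reverse orientation. HSPA5 (chr9:125241371-125241429, minus strand), XBP1 (chr22:28800583-28800641, minus strand) and HSP90B1 (chr12:103930196-103930254, plus strand) carry the ER stress response element. HERPUD1 is shown with both kinds, the C/EBP-ATF core in reverse orientation at chr16:56931946-56931993 and the shorter ER element at chr16:56932005-56932055, on the plus strand.
ASNS: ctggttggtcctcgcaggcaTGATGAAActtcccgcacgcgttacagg
CHAC1: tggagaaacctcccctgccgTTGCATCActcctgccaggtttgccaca
HSPA5: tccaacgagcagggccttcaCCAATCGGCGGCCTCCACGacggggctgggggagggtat
XBP1: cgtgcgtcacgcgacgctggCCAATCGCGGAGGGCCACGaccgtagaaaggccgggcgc
HSP90B1: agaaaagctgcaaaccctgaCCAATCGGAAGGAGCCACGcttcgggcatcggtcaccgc
HERPUD1, C/EBP-ATF core: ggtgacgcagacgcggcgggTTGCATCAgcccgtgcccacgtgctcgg
HERPUD1, shorter ER element: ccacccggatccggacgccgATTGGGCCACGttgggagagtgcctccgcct

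Between day 21 and day 45 the ATF4 arm rose while the ER chaperones were divided. Of the 18 members of the ATF4 arm, 17 rose and 1 (PSPH) fell at an adjusted p below 0.05, with a median log2 fold change of 1.24. Of the 21 members of the ER arm, 9 rose, 2 fell and 10 did not pass the test, with a median of 0.18. Over all genes tested, 57.7% were called, 27.1% higher and 30.5% lower, with a median of -0.05. All libraries of day 45 lay above all of day 21 for 17 of 18 members of the ATF4 arm, against 25.3% of all genes. Fold changes are edgeR estimates from TMM-scaled counts. On TPM (transcripts-per-million), a per-length scale that makes each library sum to a fixed total, the median of all genes moved to -0.34. There the ATF4 arm had 16 members higher and 1 lower, but the ER arm had 5 higher and 9 lower, so the direction of many chaperones against day 21 depends on the scale. Of all 17838 genes, 2147 were higher and 8722 lower by TPM.

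**Figure D1:**
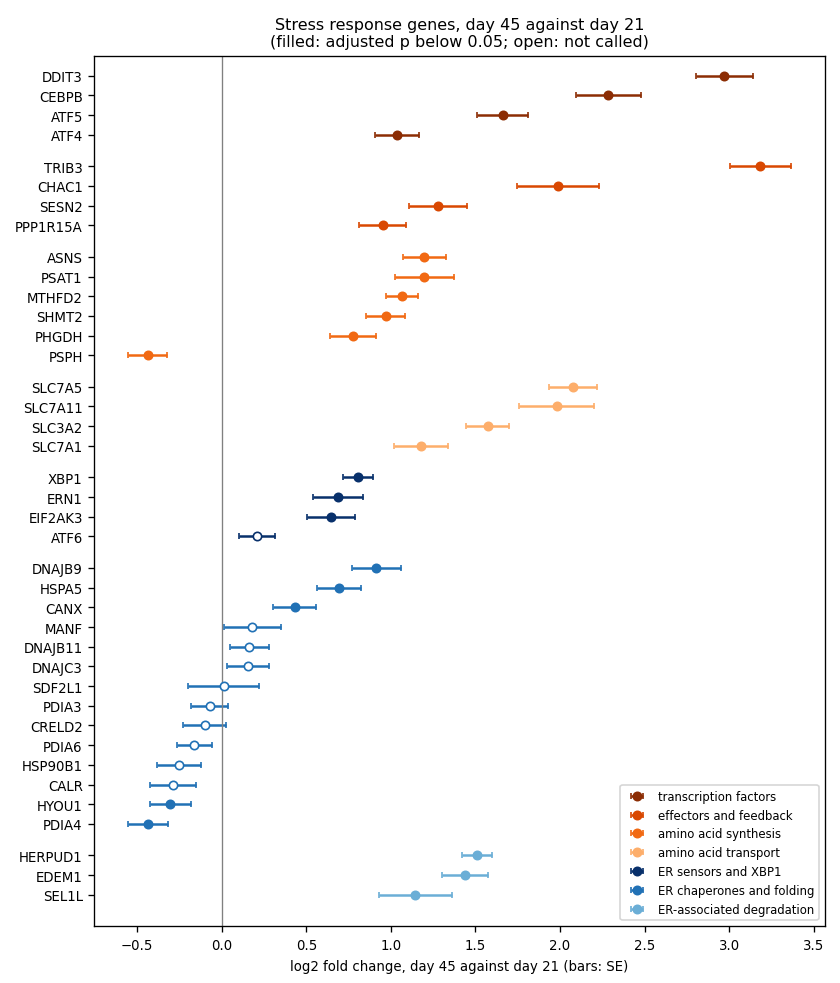
Log2 fold change (edgeR, TMM-scaled counts) of each of the 39 members at day 45 against day 21, with bars for the SE members grouped by role and open points for those not called. In all, 17 of 18 members of the ATF4 arm are called higher, whereas the 14 ER chaperones lie on both sides of 0.

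The 4 transcription factors all rose by day 30. ATF4 itself, whose transcript level is only partly a measure of its activity because ATF4 is mainly controlled at translation, stood at 293, 266, 216 and 261 CPM in day 21 replicates 1 to 4. It stood at 422, 410, 577, 589 and 511 CPM at day 30 and at 557, 522, 456, 521 and 598 CPM at day 45. No day 21 library reached the lowest library of either later day, and the later days overlapped. The log2 fold change of ATF4 was 0.95 ± 0.13 (SE) at day 30 against day 21 (adjusted p = 1.21e-05). From day 30 to day 45 it was 0.08 ± 0.12 (adjusted p = 0.591), but 0.36 with an offset for gene length and 0.34 without day 30 replicates 3 to 5, both called. With the offset all 4 factors were called higher in this step, against 1 (CEBPB) without it. DDIT3 encodes CHOP, a factor linked to cell death under lasting ER stress. It was at 3.95, 4.05, 3.34 and 3.88 CPM at day 21, at 18.6, 19.9, 25.7, 26.8 and 28.9 CPM at day 30 and at 26.5, 36.3, 23.5, 27.3 and 35.9 CPM at day 45.

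DDIT3 thus had the clearest gap of the factors, since the highest day 21 library had 4.05 CPM and the lowest later one 18.6 CPM. Its log2 fold change was 2.66 ± 0.17 at day 30 and 2.97 ± 0.17 at day 45 against day 21 (adjusted p = 2.82e-09 and 1.63e-10), and 0.32 ± 0.14 between the later days (adjusted p = 0.0645), where it was called without day 30 replicates 3 to 5 (0.62) and with the length offset (0.72). DDIT3 overlaps MARS1 and MBD6 on the opposite strand, and the library kit does not mark strand. MARS1, the cytosolic methionyl-tRNA synthetase gene, rose by 0.61 ± 0.12 by day 45, and its summed count over the 14 libraries was 1029% of that of DDIT3. The part of its reads in the DDIT3 values was not tested.
CEBPB, a leucine zipper factor that pairs with CHOP, was at 8.75, 6.59, 4.78 and 6.12 CPM at day 21. It reached 23.1, 17.3, 24.6, 24.8 and 15.7 CPM at day 30 and 32.7, 36.3, 23.8, 28.6 and 38.3 CPM at day 45. CEBPB rose in each step, by 1.69 ± 0.19 and then by 0.60 ± 0.17 (adjusted p = 1.43e-06 and 0.00627), the latter not called with day 45 replicate 1 placed at day 30 (0.46, adjusted p = 0.0845). ATF5, a related factor of the mitochondrial stress response, rose by 1.53 ± 0.15 by day 30 and by 1.66 ± 0.15 by day 45 against day 21, and overlaps NUP62 on the opposite strand.

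The feedback and effector genes rose by day 45 in 4 of 4 cases, with different courses. TRIB3, a pseudokinase that restrains ATF4 and CHOP, had the largest log2 fold change of the 39 members, 3.19 ± 0.18 (adjusted p = 2e-10). It was at 7.06, 7.12, 4.47 and 5.81 CPM at day 21, at 24.3, 18.8, 24.5, 21.4 and 25.5 CPM at day 30 and at 39.7, 73.0, 48.3, 55.5 and 61.8 CPM at day 45. The 3 days did not overlap. CHAC1, which degrades glutathione, was at 26.5, 20.5, 9.10 and 11.6 CPM at day 21, at 86.7, 65.9, 93.1, 86.9 and 77.3 CPM at day 30 and at 61.8, 83.9, 60.9, 63.2 and 66.6 CPM at day 45. It rose by 2.28 ± 0.24 by day 30 (adjusted p = 1.18e-06), with no detectable change after it (-0.29 ± 0.21, adjusted p = 0.267).

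SESN2, a leucine-binding inhibitor of mTORC1, rose by 0.94 ± 0.17 by day 30 and by 1.28 ± 0.17 by day 45 against day 21. PPP1R15A encodes GADD34, the phosphatase subunit that removes the phosphate from eIF2 alpha. It took the opposite course to CHAC1: its log2 fold change was -0.15 ± 0.14 from day 21 to day 30 (adjusted p = 0.386) and 1.10 ± 0.13 from day 30 to day 45 (adjusted p = 3.57e-06). The difference between these 2 changes was itself called, at 1.24 ± 0.24 (adjusted p = 0.000339), and for CHAC1 it was -2.56 ± 0.37 (adjusted p = 3.62e-05).

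**Figure D2:**
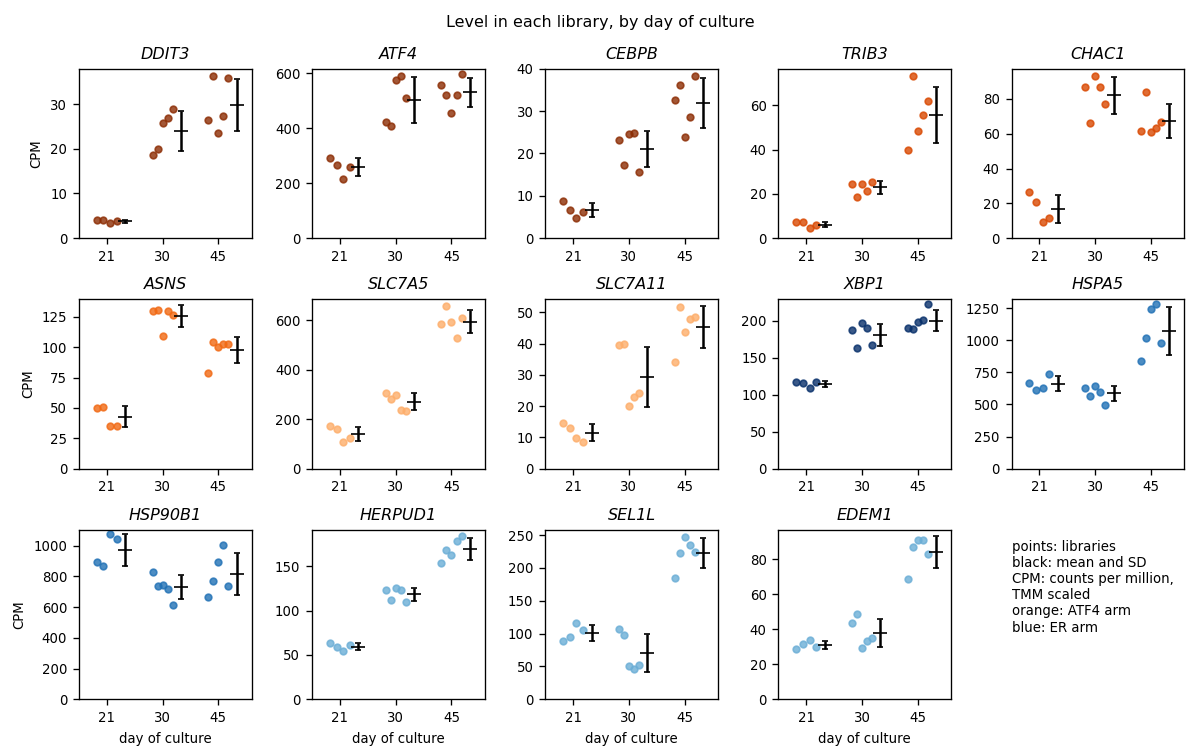
Level of each described member in every library (TMM-scaled CPM, linear axis from 0), by day, with 1 point per library in replicate order and black marks for the mean and SD. DDIT3 and TRIB3 show no overlap between day 21 and the later days, whereas HSP90B1 libraries of day 45 (665 to 1005 CPM) overlap those of day 21 (869 to 1080 CPM).

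Amino acid synthesis genes rose by day 30 in 6 of 6 cases and none rose between day 30 and day 45. ASNS, which makes asparagine, was at 49.6, 50.6, 35.2 and 35.1 CPM at day 21, at 130, 130.7, 109.4, 129.8 and 126.8 CPM at day 30 and at 79.0, 104.6, 100.3, 103.0 and 102.3 CPM at day 45. All day 30 libraries lay above all of day 45, and these above all of day 21. ASNS rose by 1.56 ± 0.13 by day 30 (adjusted p = 3.96e-08) and then fell by 0.36 on the log2 scale (SE 0.12, adjusted p = 0.0144). That fall lost its call with the length offset (-0.16, adjusted p = 0.209) and with day 45 replicate 1 placed at day 30 (-0.20, adjusted p = 0.301). The serine pathway begins with PHGDH and PSAT1, which rose by 0.81 ± 0.14 and 1.31 ± 0.18 by day 30 and were at -0.03 ± 0.13 and -0.11 ± 0.16 between the later days. By TPM, PHGDH lost its call at day 30 (0.098, adjusted p = 0.562) and at day 45 against day 21 (0.25, adjusted p = 0.125). SHMT2 and MTHFD2, which move the serine carbon into the mitochondrial folate pool, rose by 1.10 ± 0.12 and 1.001 ± 0.10 by day 30 and did not pass the test between the later days. SHMT2 overlaps NDUFA4L2 on the opposite strand, whose summed count was 58.2% of that of SHMT2.

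PSPH, the last enzyme of serine synthesis, was the member of the ATF4 arm that ended lower. PSPH was called higher at day 30 by a narrow margin (0.28 ± 0.12, adjusted p = 0.0495), a call lost under 18 of 25 other ways of processing the data. It then fell by 0.72 on the log2 scale (SE 0.11, adjusted p = 4.22e-05). At day 45 its libraries lay at 10.5 to 15.3 CPM, below the 15.7 to 19.01 CPM of day 21. PSPH has a near-identical pseudogene, so the split of its reads is uncertain. The later change was called below the earlier one in all 6 synthesis genes, in 5 with the length offset or without day 30 replicates 3 to 5, and in 3 by TPM.

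The 4 amino acid transporter subunits rose by day 45 and also between day 30 and day 45. SLC7A5, the LAT1 subunit that imports leucine and other large neutral amino acids, was at 171, 161, 109 and 125 CPM at day 21. It stood at 305, 283, 298, 238 and 231 CPM at day 30 and at 585, 657, 592, 528 and 611 CPM at day 45. The days were fully separated, with log2 fold changes of 0.94 ± 0.14 and then 1.13 ± 0.13 (adjusted p = 1.88e-05 and 1.78e-06). SLC7A11, the cystine importer, was at 14.6, 12.9, 9.80 and 8.61 CPM at day 21, at 39.7, 40.0, 19.9, 22.8 and 24.2 CPM at day 30 and at 34.2, 51.8, 43.8, 47.9 and 48.4 CPM at day 45.

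SLC7A11 was divided at day 30, where replicates 1 and 2 were higher than replicates 3 to 5, the libraries in which long genes were low. SLC7A11 is in the longest 20% of genes, and its rise by day 45 was 1.98 ± 0.22 (adjusted p = 8.18e-07). SLC3A2, the heavy chain shared by both importers, rose by 0.93 ± 0.13 and then 0.64 ± 0.12. SLC7A1, which imports arginine and lysine, was not called by day 30 (0.18 ± 0.16, adjusted p = 0.339) and rose by 0.998 ± 0.15 from day 30 to day 45. SLC7A1, also in the longest 20% of genes, was called higher by day 30 without day 30 replicates 3 to 5 (0.53) and with the length offset (0.71). Between the later days, 4 of 4 transporters rose and 0 of 6 synthesis genes did. The counts were 3 and 1 with the length offset and 3 and 0 without day 30 replicates 3 to 5, where the later change of SLC7A11 was 0.24 and 0.17, not called.

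Of the sensors and XBP1, 3 of 4 rose by day 45, at different times. XBP1 was at 117, 116, 109 and 117 CPM at day 21, at 188, 163, 197, 190 and 168 CPM at day 30 and at 190, 189, 199, 201 and 223 CPM at day 45. All later libraries lay above those of day 21. XBP1 rose by 0.66 ± 0.09 by day 30 (adjusted p = 8.24e-06) and was at 0.15 ± 0.08 after it (adjusted p = 0.136). By TPM the day 30 rise lost its call (0.15, adjusted p = 0.143), and that by day 45 was 0.39 and called. These counts do not tell spliced from unspliced XBP1. ERN1 and EIF2AK3 rose by 0.69 ± 0.15 and 0.65 ± 0.14 by day 45 against day 21, after day 30 changes of -0.42 ± 0.15 and 0.00 ± 0.14. ATF6 was not called by day 45 (0.21 ± 0.11, adjusted p = 0.102), but fell by 0.60 on the log2 scale by day 30 (SE 0.11) and then rose by 0.81 ± 0.10. ERN1, EIF2AK3 and ATF6 are in the longest 20% of genes, and with an offset for gene length the day 30 values of ERN1 and ATF6 were 0.08 and -0.03, neither called. On the TPM scale, ERN1 and EIF2AK3 were not called at day 45 against day 21 (0.26 and 0.17).

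**Figure D3:**
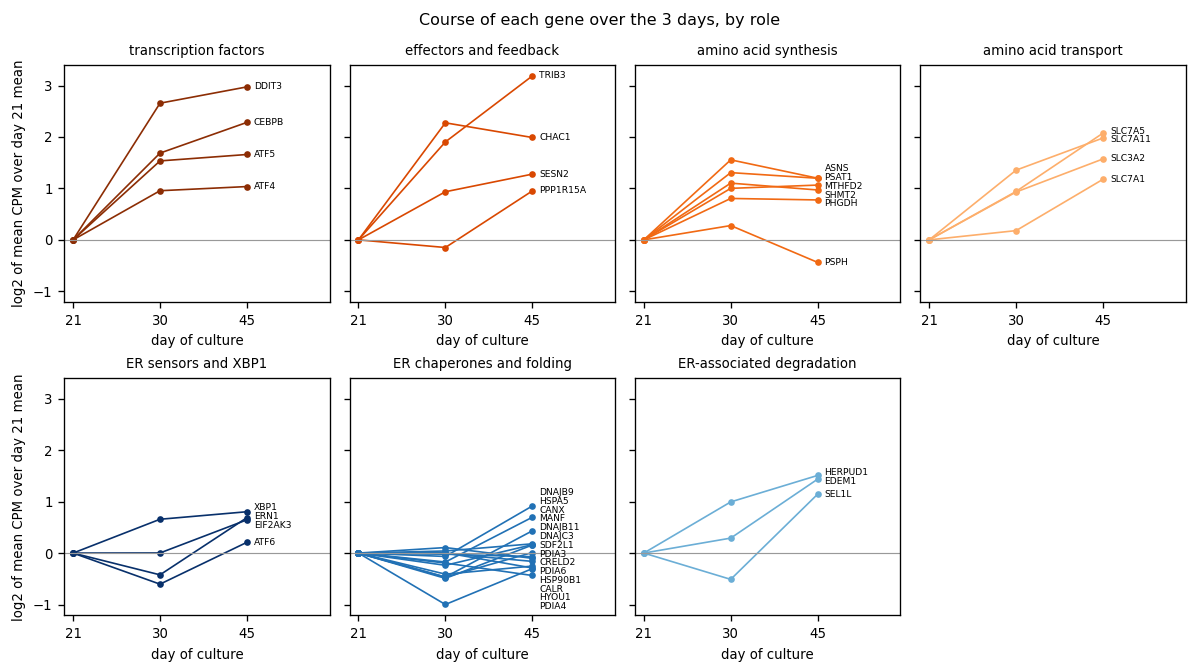
Log2 of the mean level of each member over its day 21 mean (TMM-scaled CPM) at days 21, 30 and 45, in 1 panel per role, with gene names in the order of the day 45 values. Synthesis genes are near or below their day 30 value at day 45, the 4 transporter subunits are above it, and no chaperone is called higher at day 30.

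The 14 ER chaperones and folding enzymes did not move together. Between day 21 and day 45, 3 rose (DNAJB9, HSPA5 and CANX), 2 fell (HYOU1 and PDIA4) and 9 did not pass the test (HSP90B1, DNAJB11, DNAJC3, SDF2L1, CALR, PDIA3, PDIA6, MANF and CRELD2), with a median of -0.03. The 3 of 14 higher and 2 of 14 lower stand beside 27.1% and 30.5% of all genes, so neither share exceeds that of all genes. HSPA5 encodes BiP, the main ER chaperone and the partner that holds the sensors inactive. It was at 671, 609, 630 and 738 CPM at day 21, at 629, 567, 643, 597 and 498 CPM at day 30 and at 841, 1016, 1247, 1279 and 978 CPM at day 45. Days 21 and 30 overlapped and all day 45 libraries were higher. HSPA5 rose by 0.70 ± 0.13 (adjusted p = 0.000196) against day 21, a call lost on the TPM scale (0.24, adjusted p = 0.151).

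HSP90B1, the ER form of the HSP90 chaperone, was at 892, 869, 1080 and 1043 CPM at day 21, at 831, 741, 747, 718 and 617 CPM at day 30 and at 665, 774, 897, 1005 and 735 CPM at day 45. The libraries of day 30 lay below all of day 21, and day 45 overlapped with both. HSP90B1 fell by 0.41 on the log2 scale by day 30 (SE 0.13, adjusted p = 0.0126), a call lost without day 30 replicates 3 to 5 (-0.31, adjusted p = 0.107), and was at -0.25 ± 0.13 at day 45 against day 21 (adjusted p = 0.104). HYOU1, a nucleotide exchange factor of BiP, fell by 0.999 on the log2 scale by day 30 (SE 0.12, adjusted p = 3.57e-06) and rose by 0.70 ± 0.12 after it. Its deficit at day 45 against day 21 was small (-0.30 ± 0.12, adjusted p = 0.0431) and lost its call under 12 of 25 other ways of processing.

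DNAJB9, a co-chaperone of BiP that acts on IRE1, was not called at day 30 (-0.07 ± 0.15) and rose by 0.98 ± 0.14 from day 30 to day 45. By TPM, DNAJB9 was called lower at day 30 (-0.81, adjusted p = 6.33e-05). It overlaps PNPLA8 and THAP5 on the opposite strand. CANX, the membrane-bound lectin chaperone of new glycoproteins, fell by 0.47 on the log2 scale by day 30 (SE 0.13), a call lost without day 30 replicates 3 to 5 (-0.23) and with day 45 replicate 1 placed at day 30 (-0.33). It ended 0.43 ± 0.13 above day 21, with a value of 0.03 on the TPM scale, not called. Its soluble relative CALR was at -0.29 ± 0.14 (adjusted p = 0.0782). The disulphide isomerase PDIA4 fell by 0.44 on the log2 scale (SE 0.12, adjusted p = 0.00499), while PDIA3 and PDIA6 were at -0.07 ± 0.11 and -0.16 ± 0.10. MANF, CRELD2, DNAJB11, DNAJC3 and SDF2L1 lay between -0.10 and 0.18 at day 45 against day 21, none of them called. CRELD2 overlaps ALG12 on the opposite strand, whose summed count was 71.3% of that of CRELD2. Of the 7 ER arm genes with the ER stress response element in their window, HSPA5, XBP1 and CANX rose by day 45, and HSP90B1, CALR, PDIA6 and CRELD2 did not pass the test.

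The 3 degradation genes all rose by day 45 and had the largest changes of the ER arm. HERPUD1, a membrane component that gathers the degradation complex, was at 63.9, 58.4, 54.3 and 61.2 CPM at day 21, at 123.0, 112.1, 125.0, 122.9 and 109.3 CPM at day 30 and at 153.5, 168.0, 162.4, 178.2 and 184.3 CPM at day 45. The 3 days did not overlap, and the rise was 1.51 ± 0.09 (adjusted p = 2.36e-10). By day 30 HERPUD1 had risen by 0.99 ± 0.09. EDEM1, a lectin that marks misfolded glycoproteins, was at 28.96, 31.6, 34.0 and 29.7 CPM at day 21, at 43.6, 48.7, 29.4, 33.3 and 35.2 CPM at day 30 and at 68.6, 87.0, 91.0, 91.0 and 83.1 CPM at day 45.

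EDEM1 rose by 1.15 ± 0.13 from day 30 to day 45 (adjusted p = 1.38e-06) and was not called by day 30 (0.29 ± 0.13, adjusted p = 0.072). It is in the longest 20% of genes, and was called higher by day 30 without day 30 replicates 3 to 5 (0.56) and with the length offset (0.76), where its later change did not differ detectably from the earlier one (0.29 and 0.09). SEL1L, the adaptor of the ubiquitin ligase HRD1, was at 88.2, 94.1, 115.4 and 105.2 CPM at day 21, at 106.4, 97.6, 51.4, 46.6 and 51.5 CPM at day 30 and at 184.7, 222.9, 247.5, 234.4 and 224.4 CPM at day 45. At day 30, replicates 1 and 2 lay within the day 21 range and replicates 3 to 5 below all day 21 libraries. The fall of SEL1L at day 30 (-0.51 ± 0.21, adjusted p = 0.04999) was lost under 19 of 25 other ways of processing and was 0.01 without those 3 libraries. Its rise by day 45 was 1.15 ± 0.22 (adjusted p = 0.000244).

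From day 21 to day 30 most of the ATF4 arm rose, while the ER arm had calls in both directions. In the ATF4 arm 16 members rose, 0 fell and 2 did not pass the test, with a median of 1.05, and in the ER arm 2 rose, 7 fell and 12 did not pass, with a median of -0.17. Of all genes, 54.4% were called, 27.2% higher and 27.1% lower. The 7 of 21 lower in the ER arm stand near that last share. All day 30 libraries lay above all day 21 libraries for 15 members of the ATF4 arm, against 20% of all genes. The members of the ER arm that rose were XBP1 and HERPUD1, and those that fell were ERN1, ATF6, HSP90B1, HYOU1, DNAJC3, CANX and SEL1L. Without day 30 replicates 3 to 5, the ATF4 arm had 16 higher and 0 lower, with SLC7A1 called and PSPH not, and the ER arm had 4 higher and 3 lower. With an offset for gene length the counts were 16 and 0 in the ATF4 arm and 3 and 5 in the ER arm. On the TPM scale, where the median of all genes was -0.35, they were 14 and 1 (PPP1R15A) in the ATF4 arm, and 1 and 17 in the ER arm. Of all 17838 genes, 1788 were higher and 9019 lower on that scale.

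From day 30 to day 45 the calls in the ER arm were all rises. In the ER arm 12 members rose, 0 fell and 9 did not pass the test, with a median of 0.52, and in the ATF4 arm 7 rose, 2 fell (ASNS and PSPH) and 9 did not pass, with a median of 0.22. Of all genes, 56.3% were called, 27.6% higher and 28.7% lower. The 12 were ERN1, ATF6, EIF2AK3, HSPA5, HYOU1, DNAJB9, DNAJB11, DNAJC3, CANX, HERPUD1, SEL1L and EDEM1. Without day 30 replicates 3 to 5 the ER arm had 13 higher and 0 lower and the ATF4 arm 8 and 2. With the length offset they had 15 and 0, and 10 and 1. A replicate block gave 12 higher and 1 lower in the ER arm. CALR, at -0.297 from day 30 to day 45 (adjusted p = 0.059), was called lower under 6 of 25 other ways of processing. PDIA4 and CRELD2 were called lower under 2 and 1 of them.

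The test of the later change minus the earlier change describes this order directly. It was called lower in 11 members of the ATF4 arm and higher in 2 (PPP1R15A and SLC7A1), with a median of -0.91. It was called higher in 13 members of the ER arm and lower in 2 (XBP1 and HERPUD1), with a median of 0.64. Without day 30 replicates 3 to 5 the ATF4 arm had 9 lower and 1 higher, and the ER arm 9 higher and 0 lower. By TPM, where the median of all genes was 0.37, the ATF4 arm had 6 lower and 3 higher with a median of -0.34, and the ER arm 14 higher and 0 lower with a median of 1.16. Of all genes, 52.7% were called, 25.3% higher and 27.5% lower. The largest negative value was that of CHAC1 and the largest positive one that of SEL1L (2.17 ± 0.37). The median of this contrast ran from -0.73 in the shortest 20% of all genes to 0.79 in the longest, and SLC7A1, SLC7A5, SLC7A11, ERN1, ATF6, EIF2AK3, HSPA5, HYOU1, DNAJC3, SEL1L and EDEM1 are in the longest 20%. With the offset for gene length, SLC7A1 and HERPUD1 changed sign (-0.07 and 0.02) and neither was called. ATF4, PHGDH, XBP1, ATF6, EIF2AK3 and EDEM1 also lost their calls, while SESN2, SLC7A11 and MANF were called. Any part of gene length that the offset does not remove was not tested.

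**Figure D4:**
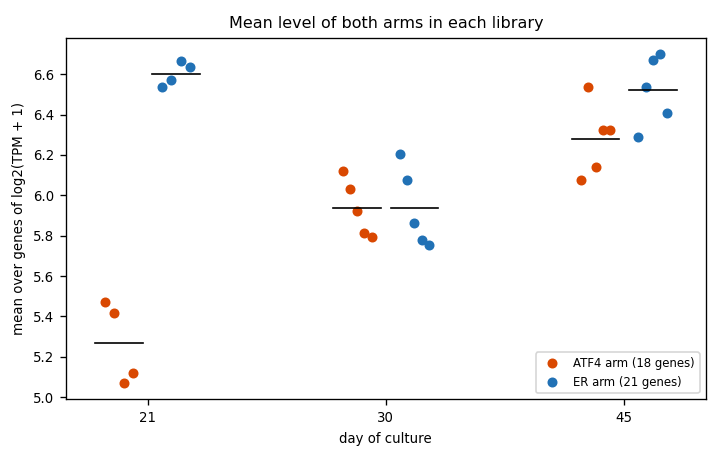
Mean log2(TPM + 1) of the ATF4 arm and of the ER arm in each library, by day, with 1 point per library and lines for the mean of the day. The difference between the arms of a library, not drawn, lies between -1.60 and -1.06 at day 21, between -0.08 and 0.06 at day 30 and between -0.53 and 0.00 at day 45. The median change of all genes on this scale is -0.35 at day 30 against day 21.

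Within each library, the arms were compared as the mean of log2(TPM + 1) over their members. The ATF4 arm minus the ER arm was -1.33 ± 0.26 in the day 21 libraries (SD, n = 4). It was 0.00 ± 0.06 in those of day 30 (SD, n = 5) and -0.24 ± 0.22 in those of day 45 (SD, n = 5). The day 21 libraries did not overlap with the later days. The change from day 21 to day 45 was 1.09, and 1.002 to 1.18 when each library was left out in turn. In this scale the ATF4 arm had means of 5.27, 5.94 and 6.28 on the 3 days, and the ER arm 6.60, 5.94 and 6.52. The median of all genes on it was -0.35 at day 30 and -0.34 at day 45 against day 21. At day 30 the ER arm was at 6.204 and 6.078 in replicates 1 and 2. It was at 5.865, 5.78 and 5.752 in replicates 3 to 5, where long genes were low. The ATF4 arm was at 6.12 and 6.03, and at 5.924, 5.811 and 5.793. No test was made on these means, since the members were chosen with results known.

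By TPM, the most abundant members at day 21 were CALR (1236 ± 42.1 TPM, SD, n = 4), HSP90B1 (833 ± 116) and PDIA3 (640 ± 50.1), followed by ATF4 (434 ± 34.3). At day 45 they were CALR (741 ± 137 TPM, SD, n = 5), ATF4 (660 ± 64.6), HSP90B1 (512 ± 93.9), PDIA3 (485 ± 43.4) and HSPA5 (436 ± 87.8). The gaps between these neighbours at day 45 are smaller than the sum of their SDs. The lowest members were ERN1 and SLC7A11 on all 3 days, with SLC7A11 at 2.68 ± 0.58 TPM at day 21 and 7.94 ± 1.73 at day 45, and ERN1 at 5.46 ± 1.23 at day 45. DDIT3 went from 11.4 ± 0.69 TPM to 66.0 ± 13.9.

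Libraries of the same day differed in which arm was high. At day 21, replicates 1 and 2 were the 2 highest libraries for 16 of 18 members of the ATF4 arm, and CHAC1 was at 26.5 and 20.5 CPM there and at 9.10 and 11.6 CPM in replicates 3 and 4. At day 45, replicates 3 and 4 were the 2 highest for 15 of 21 members of the ER arm, and replicates 2 and 5 for 10 of 18 of the ATF4 arm. MANF, a secreted ER protein, shows this pattern: it was at 93.9 and 94.7 CPM in day 45 replicates 3 and 4 and at 60.5, 60.4 and 56.5 CPM in replicates 1, 2 and 5. This is a description of libraries, and the labels give no difference between them. The same ranks were not counted over all genes, so these counts cannot be told from a shift shared by many genes.

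The wider pathway was read from lists of genes that are not members, in day 45 against day 21. Other targets of ATF4 rose in 22 of 25 cases, with 1 lower and a median of 0.97. They include ATF3, a transcription factor of the same response (3.11 ± 0.25), VLDLR, a lipoprotein receptor (2.72 ± 0.17), CTH, which makes cysteine (2.47 ± 0.16), and SLC1A5, a glutamine carrier (1.48 ± 0.12). ATF3 is also counted among the immediate early genes below, and another of the 25 in the list that follows. NUPR1, a stress-induced chromatin protein, was highest at day 30, with 1.23 ± 0.15 against day 21 and then -0.48 ± 0.14. Of the 25, 15 were higher and 2 lower on the TPM scale. The TPM counts of this and the following lists stand beside 2147 higher and 8722 lower of all 17838 genes. Their edgeR counts stand beside 27.1% of all genes higher and 30.5% lower.

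Cytosolic aminoacyl-tRNA synthetases, which load amino acids on tRNA and of which several are ATF4 targets, rose in 17 of 20 cases with none lower and a median of 0.62. SARS1, GARS1 and AARS1 rose by 1.33 ± 0.11, 1.26 ± 0.10 and 1.02 ± 0.12. Of the eIF2 kinases, subunits and regulators, 8 of 14 rose and none fell, with EIF2S2 at 1.02 ± 0.09, EIF2S1 at 0.60 ± 0.10 and NCK1 at 0.57 ± 0.10. EIF2AK4, the amino acid sensing kinase GCN2, was not called (0.29 ± 0.13, adjusted p = 0.0667). The synthetases had 7 higher and 3 lower, and the eIF2 list 1 higher and 4 lower, on the TPM scale. Of all 17838 genes, 2147 were higher and 8722 lower there. By edgeR, 27.1% of all genes were higher and 30.5% lower.

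Other ER folding genes rose in 15 of 22 cases with none lower and a median of 0.50, beside the median of -0.03 of the 14 member chaperones. This difference between lists was not tested. ERO1A, the ER oxidase, rose by 2.16 ± 0.18, SELENOM, RCN1 and TXNDC11 by 1.46 ± 0.14, 1.01 ± 0.10 and 1.07 ± 0.10, and P4HB, the disulphide isomerase that is also a subunit of the collagen prolyl hydroxylase, by 0.67 ± 0.11. Of other degradation genes 12 of 19 rose and 1 fell (DERL3, -2.28 ± 0.35), with SELENOS at 0.77 ± 0.08, MAN1B1 at 0.71 ± 0.09, HERPUD2 at 0.76 ± 0.11 and the ligase SYVN1 at 0.35 ± 0.08. Of the translocation genes 14 of 21 rose and 1 fell (SEC11C, -0.55 ± 0.18), led by SRPRA (1.51 ± 0.11), SRP54 (0.94 ± 0.10), SPCS1 (0.96 ± 0.11) and SSR3 (0.82 ± 0.10), with SEC61A1, the channel itself, at 0.38 ± 0.10. On the TPM scale the folding, degradation and translocation lists had 7, 2 and 4 genes higher and 4, 6 and 6 lower. The edgeR counts of these lists stand beside 27.1% of all genes higher and 30.5% lower.

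**Figure D5:**
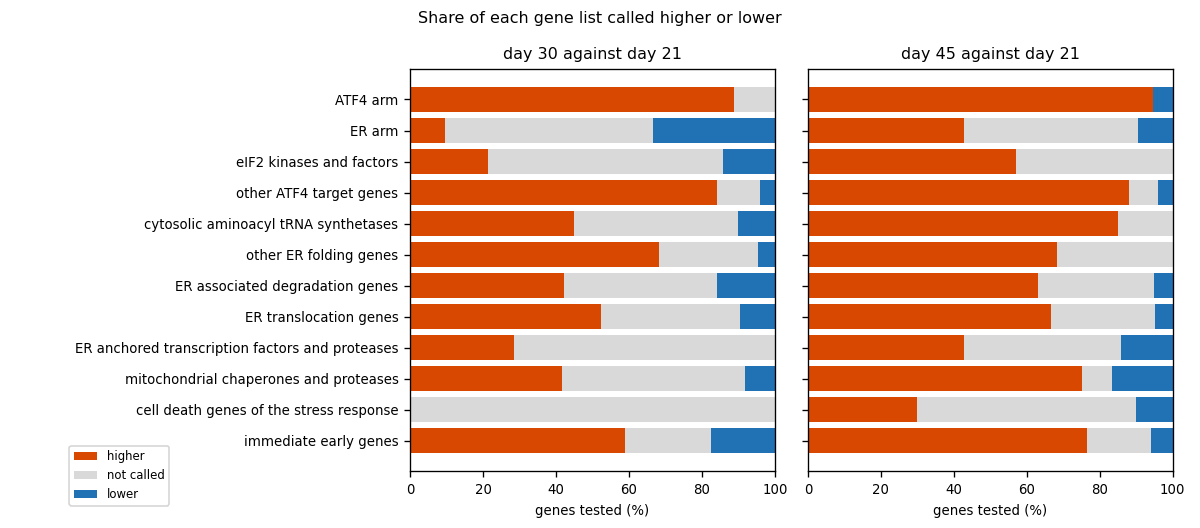
Share of the genes tested (percent) called higher, not called and called lower in each list and both arms, for day 30 and day 45 against day 21. At day 45 the ATF4 arm (17 of 18 higher) and other ATF4 targets (22 of 25) have the largest shares of higher genes among the stress response lists.

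The factors anchored in the ER membrane and the proteases that free them had 3 genes higher, 1 lower (ATF6B, -0.51 ± 0.11) and 3 not called of 7 tested. CREB3 was at 0.64 ± 0.09, MBTPS2 at 0.72 ± 0.18 and CREB3L1 at 0.46 ± 0.15, and CREB3L2, a factor of secretory capacity in chondrocytes, was not called (0.30 ± 0.13, adjusted p = 0.0644). Mitochondrial chaperones and proteases rose in 9 of 12 cases and fell in 2 (SPG7 and HTRA2), with LONP1 at 1.21 ± 0.11, HSPA9 at 1.13 ± 0.10, TRAP1 at 0.75 ± 0.10 and DNAJA3 at 0.74 ± 0.09. Of 10 cell death genes linked to the response, 3 rose and 1 fell. The 3 of 7, 9 of 12 and 3 of 10 higher stand beside 27.1% of all genes. TNFRSF10B, a death receptor gene induced by CHOP, rose by 1.005 ± 0.11, TNFRSF10A by 0.84 ± 0.30 and MCL1 by 0.48 ± 0.11, while BID fell by 0.60 on the log2 scale (SE 0.18). On the TPM scale these 3 lists had 1, 4 and 1 genes higher and 2, 3 and 2 lower.

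Immediate early genes, which respond within minutes to growth factors and to handling of tissue, rose beside the ATF4 arm. Of 17, 13 rose and 1 fell by day 45 against day 21, with FOSL1 at 5.38 ± 0.33, FOS at 2.79 ± 0.16, DUSP1 at 2.69 ± 0.14 and JUNB at 2.14 ± 0.13. Of all genes, 27.1% were called higher and 30.5% lower. The summed level of the 17 genes lay between 316 and 328 CPM at day 21, 396 and 472 CPM at day 30, and 820 and 1078 CPM at day 45. The hypertrophic chondrocyte markers were also higher at each later day, with sums of 52.2 to 79.8 CPM at day 21, 348 to 507 at day 30 and 1632 to 4170 CPM at day 45, with 1 of the 6 genes at a mean below 1 CPM at day 45. The part of either group in the changes of the 39 members was not tested.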

How the data were processed

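Gene tables of 14 libraries were used. Per the submitters' processing notes, reads were handled with STAR 2.4.2a and RSEM 1.2.25 on GRCh38. Which annotation release was used is not given in the sources used. Per the file headers, each table gives the expected count and the TPM per gene. The deposited expected counts were rounded to whole numbers and tested in edgeR 4.0.16 by quasi-likelihood (R 4.3.3, TMM scaling, filterByExpr by day, robust fit), with 1 model for the 14 libraries and 1 term per day. The Benjamini-Hochberg adjustment ran over all 17838 genes of a comparison, and an adjusted p below 0.05 was called. The SE is the log2 fold change divided by the square root of F. CPM was derived here from those counts and compared within a gene, and the authors' TPM values were used between genes.

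The members and lists were chosen with earlier results of these data known. All 39 members are named. Values in every library are given for 8 genes chosen for their role and for the 3 further called members of each arm with the largest changes at day 45 against day 21. From each pathway list up to 4 genes with the smallest adjusted p are named, plus anchors. A gene that this rule names is not reported here. Single genes that fell in a list were named after their values were seen. PSPH and MANF ranges, given for contrast, were chosen likewise. Alternatives were DESeq2 1.42.0, its size factors in edgeR, limma 3.58.1 on log2(TPM + 1) and log2(TPM + 0.1), other filters, a replicate block, a gene length offset and leaving out libraries. The test was tried on simulated counts first. Coordinates and gene overlaps are from GENCODE 29 and promoter sequences from RefSeq.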

Additional observations from a re-analysis of the deposited data

Results flagged for a closer look

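In each member and day, the highest and lowest library were compared with the rest of that day by Dixon's criterion. Of 117 such groups 5 held a library set apart, about what chance gives (1 in 20). CHAC1 was at 83.9 CPM in day 45 replicate 2, with the other libraries of that day at 60.9 to 66.6. ASNS was at 109.4 CPM in day 30 replicate 3 and at 79.0 CPM in day 45 replicate 1, below the other libraries of those days at 126.8 to 130.7 and 100.3 to 104.6. XBP1 was at 109.3 CPM in day 21 replicate 3, with the others at 116.2 to 117.2. SDF2L1 was at 10.5 CPM in day 45 replicate 3, with the others at 4.58 to 6.16. Day 45 replicate 1 is the library whose treatment label reads 30 days.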

How the results depend on the processing

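The ATF4 arm had 18, 16 and 9 members called in day 45 against day 21, day 30 against day 21 and day 45 against day 30, and 18, 15 to 16 and 9 to 10 when each library was left out in turn. The ER arm had 11, 9 and 12, and 10 to 12, 7 to 10 and 12 to 15. On both TPM scales the ER arm had 18 members called in day 30 against day 21 (1 higher and 17 lower on log2(TPM + 1)). Of all genes tested, 2147 were higher and 8722 lower on log2(TPM + 1) in day 45 against day 21, against 4836 and 5448 by edgeR. In day 30 against day 21 they were 1788 and 9019, against 4858 and 4838, and for the later minus the earlier change 7354 and 2326, against 4505 and 4899. With the length offset, day 45 against day 21 had 5836 higher and 4803 lower. Genes called in day 45 against day 30 were 6466 with day 45 replicate 1 placed at day 30, against 10051. Genes whose later change differed from the earlier one were 5659 without day 30 replicates 3 to 5, against 9404. The cause was not tested.

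Member values that changed sign and were called before or after the change came from 4 settings, and 111 others changed sign without being called in either. On log2(TPM + 1) and log2(TPM + 0.1), DNAJB11 was at -0.28 and -0.28 and SDF2L1 at -0.46 and -0.49 in day 45 against day 21. In day 30 against day 21, PSPH was at -0.24 and -0.25, CALR at -0.473 and -0.473, MANF at -0.423 and -0.425 and CRELD2 at -0.395 and -0.402. For the later minus the earlier change, PHGDH was at 0.058 and 0.058, XBP1 at 0.095 and 0.095, PDIA3 at 0.663 and 0.664 and HERPUD1 at 0.208 and 0.208. Without day 30 replicates 3 to 5, SEL1L was at 0.012 in day 30 against day 21 and EIF2AK3 at -0.022 for the later minus the earlier change. With the length offset, ERN1 was at 0.082 in day 30 against day 21, and SLC7A1 at -0.07 and HERPUD1 at 0.016 for the later minus the earlier change.

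Same-numbered libraries of different days correlated at -0.25 to 0.12 (13 pairs) and others at -0.22 to 0.23 (52 pairs). These values show no pairing by number but cannot exclude one, since larger differences between libraries could hide it. With a replicate block 9728 genes were called in day 45 against day 21, with 18 members of the ATF4 arm and 10 of the ER arm. The lowest counts among the members were 62 for SDF2L1 in a day 30 library and 129 for DDIT3 in a day 21 library, so counting error is largest there.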
